A study of Arabidopsis thaliana with 2 samples.

Results

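The genes described here encode aspartyl proteases and subtilisin-like proteases of Arabidopsis thaliana, measured in young leaves of a transgenic line, 35S:NROB #2, and of wild type. A gene probe was taken when its description held "aspartyl protease", "aspartic proteinase", "subtilase" or "subtilisin", and each locus was represented by its brightest probe. This gave 121 loci of 26385 with a probe, 67 of them aspartyl and 54 subtilisin-like. The rule's words were found in 154 probes, 2 of which, subtilase probes with no locus, lay at background, between 6.50 and 12.2 intensity units in all 4 samples. Both genotypes were in the Columbia-0 background and were sampled at day 30 after growth. The line 35S:NROB #2 is 1 transgenic line, and its name carries the 35S promoter, which drives expression in nearly all plant tissues. What NROB is was not given in the sources used here, and no probe names it, so the transgene itself was not checked. RNA of the line (Cy3) and of wild type (Cy5) was hybridised together on each of 2 arrays, called biological replicates 1 and 2. The labels do not say whether a replicate was a single plant or pooled plants. The dyes were not swapped, so dye and genotype cannot be told apart in any value below.

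Aspartyl proteases cut proteins with a pair of aspartate residues, and in plants they are found in vacuoles, chloroplasts and the cell wall space, or apoplast. Subtilisin-like proteases, or subtilases, are serine proteases that are made as inactive precursors and mostly secreted. They are known for trimming precursors of peptide hormones and wall enzymes into their active forms, for turnover of wall proteins, and for roles in stomatal patterning, cuticle formation, xylem and defence.

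Values are the authors' normalized intensities on a linear scale, and a log2 ratio is the line over wild type on 1 array, so that a positive ratio means higher in 35S:NROB #2. Each array's probes also carry a deposited letter, here called a mark. The dimmest probes marked P had 35.1 and 51.0 units in the line and 28.0 and 25.4 in wild type (arrays 1 and 2). Probes marked A had at least 1 dim channel. Loci whose probe was marked P on both arrays were tested, and these were 37 of the 67 aspartyl loci (55.2%), 22 of the 54 subtilisin-like loci (40.7%) and 16956 of all 26385 loci (64.3%). Intensities of different probes are not compared, since brightness also depends on the probe. The test was limma on the 2 ratios, with adjusted p (Benjamini-Hochberg over all 16956 loci) called under 0.05. A fold rule taken from the study's own threshold kept loci whose mean log2 ratio was above 1 or below -1 and whose 2 ratios agreed in sign. It is a description, not a test.

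The samples carried leaf transcripts. All 6 mesophyll markers, such as the Rubisco small subunit RBCS1A and Rubisco activase RCA, were marked P on both arrays, with a median log2 ratio of -0.13. The 9 markers of flower, root and seed included none marked P on both arrays. The floral marker AG had 44.6 and 58.4 units in 35S:NROB #2, against 43.0 and 62.3 in wild type, and was marked P on 1 array, and the floral marker PI had 28.9 and 90.2 units in 35S:NROB #2, against 6.21 and 7.49 in wild type. The 2 arrays limit the precision of every value. In whole leaves, fewer cells of a type and less RNA per cell cannot be told apart.

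The median ratios of the 2 protease classes lay apart among loci marked P on both arrays, and close together when every locus was counted. Among the 37 aspartyl loci marked P on both arrays, 14 were higher on both arrays in 35S:NROB #2 and 14 were lower on both. Among the 22 subtilisin-like loci, only SBT3.5 was higher on both arrays and 19 were lower on both. Over all loci tested, 37.8% were higher on both arrays and 43.3% were lower on both. The median log2 ratio was 0.02 for the aspartyl class (0.07 on array 1 and -0.18 on array 2). It was -0.50 for the subtilisin-like class (-0.34 on array 1 and -0.70 on array 2), against -0.03 for all loci tested. The class medians differed by 0.52, with 0.40 on array 1 and 0.52 on array 2. Counting every locus whatever its mark, the class medians were 0.0080 (aspartyl) and -0.017 (subtilisin-like), a difference of 0.025. Of the loci added by this count, 21 of 30 aspartyl and 27 of 32 subtilisin-like had all 4 intensities at or under the dimmest P probes. Their ratios compare background with background, so the smaller difference cannot show that the classes are alike. In that count 21 of the 67 aspartyl loci were higher on both arrays and 20 lower, and 12 of the 54 subtilisin-like loci were higher and 23 lower, where 34.8% of all 26385 loci were higher and 36% lower. With 2 arrays the smallest two-sided p of an exact sign-flip permutation test is 0.5, so the class difference is given as a description.

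**Figure D1:**
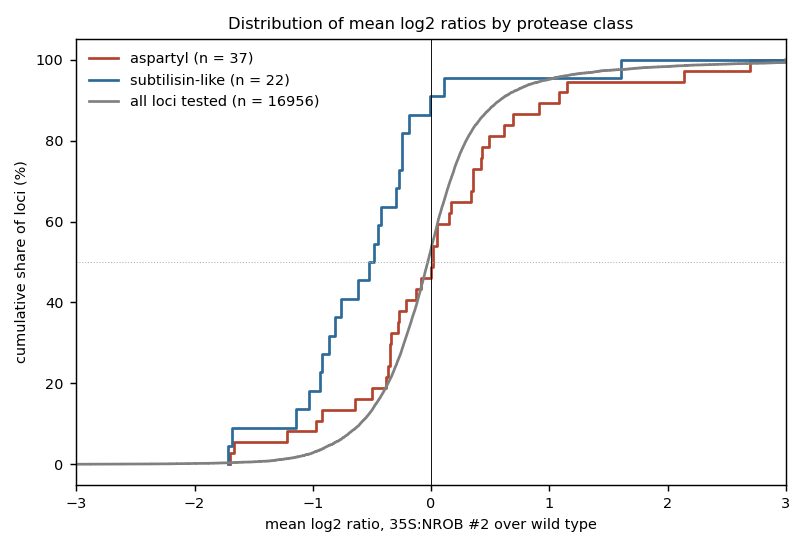
Cumulative share of loci (y axis, %) with a mean log2 ratio of 35S:NROB #2 over wild type up to the value on the x axis. The lines are the 37 aspartyl loci, the 22 subtilisin-like loci and all 16956 loci tested; the subtilisin-like line crosses 50% near its median of -0.50, and the aspartyl line crosses near 0.02. Loci not marked P on both arrays are left out of the plot. With them the class medians differ by 0.025, but most of these added loci lie at background.

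No protease locus passed limma, where 43 loci (0.254%) passed over the whole array. The lowest adjusted p was 0.0515 in either class. At an unadjusted p under 0.05, 18 aspartyl loci passed, 12 of them higher and 6 lower, and 14 subtilisin-like loci passed, 1 higher and 13 lower. Over all loci tested, 33.1% passed that unadjusted threshold. The calls depended on the fit. With each array centred on its median, limma called 3.64% of all loci, among them AED1, aspartic proteinase A2, SBT3.5 and AT5G59130 (adjusted p between 0.0414 and 0.0460). With no replicate block, so that the pairing by array was dropped, limma called 17.4% of all loci, among them 11 aspartyl and 10 subtilisin-like loci. Past the fold rule, 4 aspartyl loci were higher and 3 lower, and 1 subtilisin-like locus was higher and 4 lower. The same rule took 4.83% of all loci tested as higher and 2.84% as lower. In 12 aspartyl loci both samples of the line were above both wild-type samples, and in 13 both were below. In the subtilisin-like class these counts were 1 and 19. Over all loci tested, 23.2% lay fully above and 30.1% fully below in the line.

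The ratios of the arrays went together, but most were larger on array 2. Of the 59 protease loci tested, 51 had a larger ratio in size on array 2, as had 12746 of all 16956 loci. The number of protease loci past the fold rule therefore depended on the array. On array 1 alone, 2 aspartyl loci had a log2 ratio above 1 and 1 below -1, and on array 2 alone these were 5 and 5. In the subtilisin-like class, 1 was above and 2 below on array 1, and 1 above and 8 below on array 2.

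**Figure D2:**
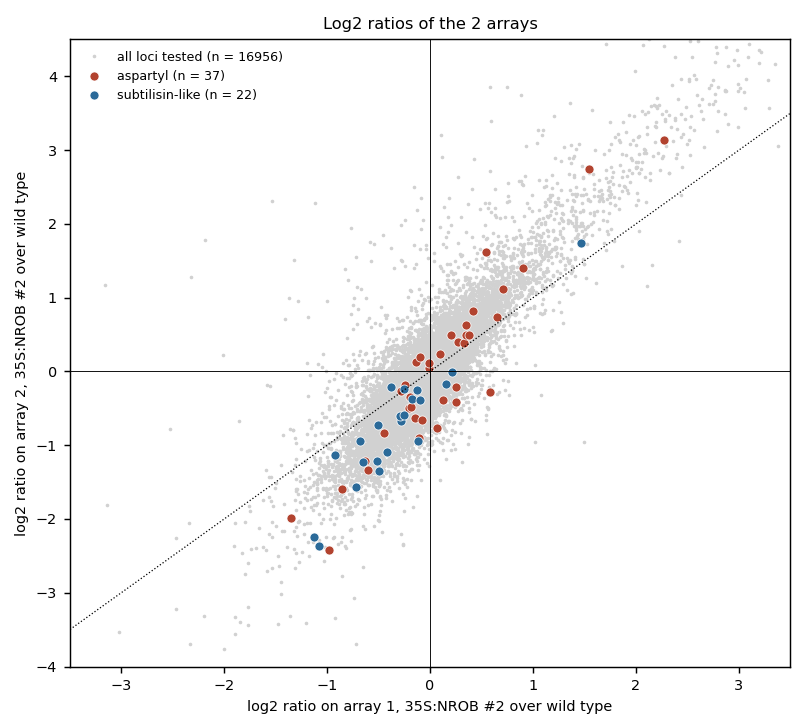
Log2 ratio of 35S:NROB #2 over wild type on array 1 (x axis) and on array 2 (y axis) for the 37 aspartyl loci, the 22 subtilisin-like loci and all 16956 loci tested. The dotted line marks equal ratios, and 66 loci lie outside the axes; the protease points run steeper than that line.

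Among aspartyl proteases, AED1 (AT5G10760) had the highest ratio of those tested. AED1 is an apoplastic protein whose transcript depends on the immune regulator EDS1, and it is known as a brake on systemic immunity. AED1 had 31572 and 42438 units in 35S:NROB #2, against 6548 and 4839 in wild type. Both samples of the line were far above both wild-type samples, by 6.50-fold (log2 2.70 ± 0.61, SD, n = 2 arrays; limma adjusted p = 0.0515). A further AED1 probe gave log2 ratios of 2.25 and 3.25. The neighbouring locus AT5G10770, of the same family, had 464 and 584 units in the line, against 295 and 350.2 in wild type. The line was again above wild type without overlap (log2 0.70 ± 0.06, SD, n = 2).

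Further loci of the aspartyl class with no name in the reference were also higher in both samples of the line. AT3G51330 had 356 and 634 units in 35S:NROB #2, against 122 and 95.0 in wild type, a 4.41-fold difference (log2 2.14 ± 0.85, SD, n = 2; limma adjusted p = 0.0636). AT1G49050 had 7234 and 11727 units in 35S:NROB #2, against 3881 and 4417 in wild type, a 2.22-fold difference (log2 1.15 ± 0.36; limma adjusted p = 0.0635). AT5G19120 had 5614 and 8539 units in 35S:NROB #2, against 3845 and 2782 in wild type, a 2.12-fold difference (log2 1.08 ± 0.76; limma adjusted p = 0.109). In all of these the groups were apart, and AT1G49050 and AT5G19120 had a log2 ratio above 1 on array 2 alone. AT2G42980 had 162 and 199 units in 35S:NROB #2, against 99.2 and 91.8 in wild type (log2 0.91 ± 0.29). AT3G59080 had 363 and 459 units in 35S:NROB #2, against 273 and 260.5 in wild type (log2 0.61 ± 0.29). Both stayed short of the fold rule, and in neither did the groups overlap. AT3G51350, AT2G17760, AT5G43100 and AT1G03230 had smaller mean log2 ratios, between 0.36 and 0.49.

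At the low end of the class stood aspartic proteinase A2 and AT3G54400. Aspartic proteinase A2 (AT1G62290) and A3 (AT4G04460) belong, with APA1, to the typical plant aspartic proteinases, which are known as vacuolar enzymes and carry a plant-specific insert. Aspartic proteinase A2 had 261 and 248 units in 35S:NROB #2, against 667 and 980.4 in wild type. Both samples of the line were lower than both wild-type samples (log2 -1.67 ± 0.45, SD, n = 2; limma adjusted p = 0.0544). A further A2 probe, marked A on both arrays, had 12.7 and 16.2 units in 35S:NROB #2, against 84.5 and 179 in wild type. Aspartic proteinase A3 had 200.3 and 149.9 units in 35S:NROB #2, against 305 and 378 in wild type (log2 -0.97 ± 0.52; limma adjusted p = 0.0872). APA1 (AT1G11910) differed less, with 22972 and 25872 units in 35S:NROB #2, against 27926 and 31162 in wild type (log2 -0.28 ± 0.01). A2 and A3 were lower in the line without overlap, and so was the brightest APA1 probe (1.21-fold). Of 3 further APA1 probes marked P on both arrays, 2 had mean log2 ratios of -0.41 and -0.36. The other had 23036 and 26050.4 units in 35S:NROB #2, against 23503 and 27887 in wild type, and its groups overlapped.

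AT3G54400 had 292 and 135 units in 35S:NROB #2, against 577 and 722 in wild type. The line was lower by 3.25-fold, and the arrays lay far apart at log2 -0.98 and -2.41 (limma adjusted p = 0.0879). AT5G07030 had 828 and 534 units in 35S:NROB #2, against 1493 and 1612 in wild type (log2 -1.22 ± 0.52; limma adjusted p = 0.0729). AT4G33490 had 6622 and 6327 units in 35S:NROB #2, against 10269 and 14712 in wild type (log2 -0.93 ± 0.41). In these 3 loci the groups did not overlap.

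Several aspartyl proteases with known roles had overlapping groups or small ratios. NANA (AT3G12700), a chloroplast aspartic protease, had 1277 and 961 units in 35S:NROB #2, against 1220.1 and 1635 in wild type, and was slightly higher on array 1 and lower on array 2. PCS1 (AT5G02190), which holds back cell death in embryos, had 516 and 367 units in 35S:NROB #2, against 557 and 684 in wild type (log2 -0.50 ± 0.56). AT1G09750 had 21505 and 15498 units in 35S:NROB #2, against 14390 and 18716 in wild type, with opposite signs on the arrays. The neighbouring loci AT1G03220 and AT1G03230 had mean log2 ratios of -0.00043 and 0.36. ASPG1 (AT3G18490), a guard cell aspartic protease whose description lacks the words of the rule, had 23796 and 24560.3 units in 35S:NROB #2, against 29434 and 34127 in wild type (log2 -0.39 ± 0.12). The remaining 16 aspartyl loci tested ran from a mean log2 ratio of -0.64 to 0.35. Among them AT4G35880 (-0.64), AT3G25700 (-0.38), AT3G61820 (-0.37) and AT4G16563 (-0.35) were lower in the line without overlap.

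**Figure D3:**
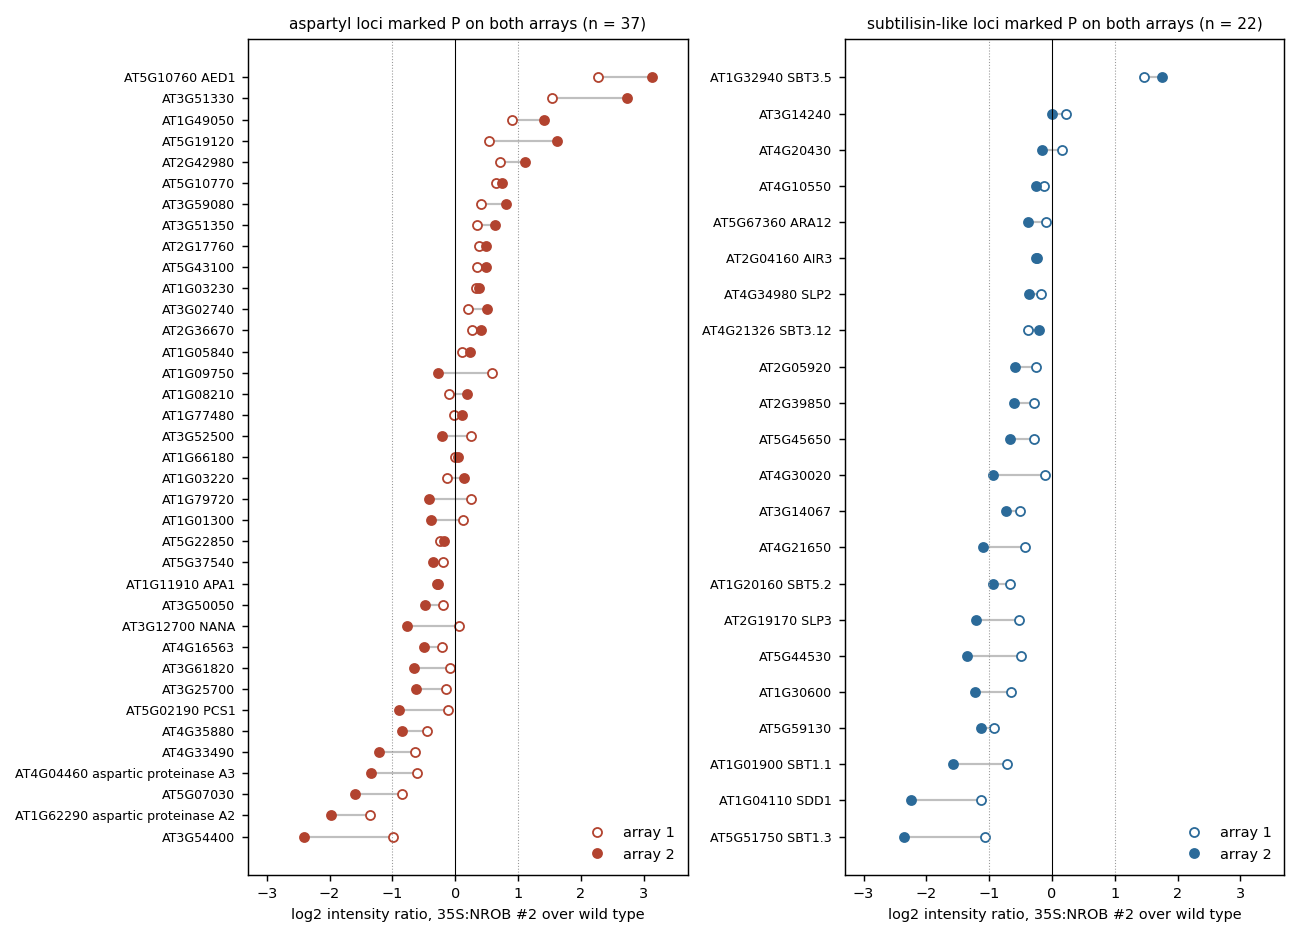
Log2 intensity ratio of 35S:NROB #2 over wild type (x axis) on array 1 (open) and array 2 (filled) for the 37 aspartyl loci (left panel) and 22 subtilisin-like loci (right panel) marked P on both arrays, with dotted lines at -1 and 1. Aspartyl loci spread to both sides of 0, from -1.70 to 2.70 in the mean, while SBT3.5, at 1.46 and 1.74 on the arrays, is the one subtilisin-like locus well above 0.

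In the subtilisin-like class, SBT3.5 (AT1G32940) stood apart on the high side. SBT3.5 is known from roots, where it processes the pectin methylesterase PME17 in the cell wall. SBT3.5 had 239 and 363 units in 35S:NROB #2, against 86.6 and 108 in wild type. The line was 3.04-fold higher with the groups apart (log2 1.46 and 1.74 on the arrays, SD 0.20, n = 2; limma adjusted p = 0.0515). PME17 (AT2G45220) itself, not a protease, had 5567 and 10765 units in 35S:NROB #2, against 201 and 336 in wild type. It rose in the line by 29.8-fold (log2 4.90 ± 0.15, SD, n = 2, limma adjusted p = 0.0243). PME17 was the one gene that passed among 11 known or proposed substrates, partners and inhibitors of these proteases, of which 8 could be tested. Of these 8, 4 were higher on both arrays and 3 were lower on both. AT5G01075 was lower past the fold rule, with 267 and 166 units in 35S:NROB #2, against 469 and 557 in wild type (log2 -1.28 ± 0.66, limma adjusted p = 0.0803). BAG6 (-0.27) and AT1G71950 (0.06) had small mean log2 ratios.

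The lowest ratios of the class belonged to SBT1.3 and SDD1. SDD1 (AT1G04110) is a subtilase of the stomatal lineage that limits the number of stomata. SDD1 had 88.5 and 59.9 units in 35S:NROB #2, against 193 and 283 in wild type. Both samples of the line were lower, by 3.21-fold (log2 -1.68 ± 0.79, SD, n = 2; limma adjusted p = 0.0737). SBT1.3 (AT5G51750) had 888 and 482 units in 35S:NROB #2, against 1870.4 and 2482 in wild type. It was 3.29-fold lower without overlap, with log2 ratios of -1.08 (array 1) and -2.36 (array 2; limma adjusted p = 0.0793).

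SBT1.1 (AT1G01900) is known to cleave the precursor of the growth peptide PSK4. SBT1.1 had 597 and 386 units in 35S:NROB #2, against 982 and 1148 in wild type (log2 -1.14 ± 0.60; limma adjusted p = 0.0839). The precursor gene PSK4 (AT3G49780) lay on the other side, with 4591 and 9999 units in 35S:NROB #2, against 616 and 568 in wild type. PSK4 was 11.5-fold higher with the groups apart (log2 3.52 ± 0.88; limma adjusted p = 0.0515). AT5G59130, a subtilase with no name in the reference, had 729 and 739 units in 35S:NROB #2, against 1385 and 1625 in wild type. Its arrays were close together, at log2 -1.03 ± 0.15 (SD, n = 2; limma adjusted p = 0.0547), and it was the fourth subtilisin-like locus past the fold rule on the low side.

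Further subtilases were lower by less than the fold rule asks. ATSBT5.2 (AT1G20160), which cleaves the precursor of the stomatal peptide EPF2, had 1260.2 and 1124 units in 35S:NROB #2, against 2015 and 2164 in wild type (log2 -0.81 ± 0.19). SLP3 (AT2G19170) had 432 and 351 units in 35S:NROB #2, against 619.8 and 811 in wild type (log2 -0.86 ± 0.49). AT3G14067 had 9629 and 9134 units in 35S:NROB #2, against 13708 and 15116 in wild type (log2 -0.62 ± 0.15). In all of these the groups were apart. AT1G30600, AT5G44530 and AT4G21650 had mean log2 ratios of -0.94, -0.92 and -0.76. Smaller ratios were found for ARA12 (AT5G67360; -0.24), a subtilase of seed coat mucilage release, for SLP2 (AT4G34980; -0.27) and for AIR3 (AT2G04160; -0.25), which was first found in auxin-treated root cultures. SBT3.12 (AT4G21326) had a mean of -0.29, AT4G10550 of -0.19, and AT2G05920, AT2G39850, AT5G45650 and AT4G30020 lay between -0.53 and -0.42. AT3G14240 and AT4G20430 were the 2 tested loci of the class whose groups overlapped, at mean log2 ratios of 0.11 and -0.0065.

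The listed subtilases outside the words of the rule had mean log2 ratios from -0.55 to 0.20. XSP1 (AT4G00230), a xylem serine peptidase, had 1980 and 1806 units in 35S:NROB #2, against 2546 and 3000.1 in wild type (log2 -0.55 ± 0.26). S1P (AT5G19660), the Golgi subtilase that activates membrane-bound transcription factors, had 1339 and 1542 units in 35S:NROB #2, against 1337 and 1590.2 in wild type, and its groups overlapped. TPP2 (AT4G20850), a large cytosolic peptidase, had a mean log2 ratio of 0.20. Among substrates of S1P, BZIP17 (0.42), BZIP28 (0.35) and RALF23 (-0.38) did not pass limma either.

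Markers of other leaf cell types also had lower values in the line. All 6 xylem markers were lower on both arrays, with a median log2 ratio of -1.06 and a range of -1.16 to -0.82. Their summed intensity was 5035 and 3454 units in 35S:NROB #2, against 7571 and 8589 in wild type. Of the 4 stomatal lineage markers, 3 were tested and were lower on both arrays, with a median of -0.94 and with TMM at -1.36, and SPCH was near background. The summed intensity of all 4, SPCH included, was 648 and 657 units in 35S:NROB #2, against 1158 and 1624 in wild type. None of the 9 markers tested passed limma, and their part in the protease values was not tested.

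**Figure D4:**
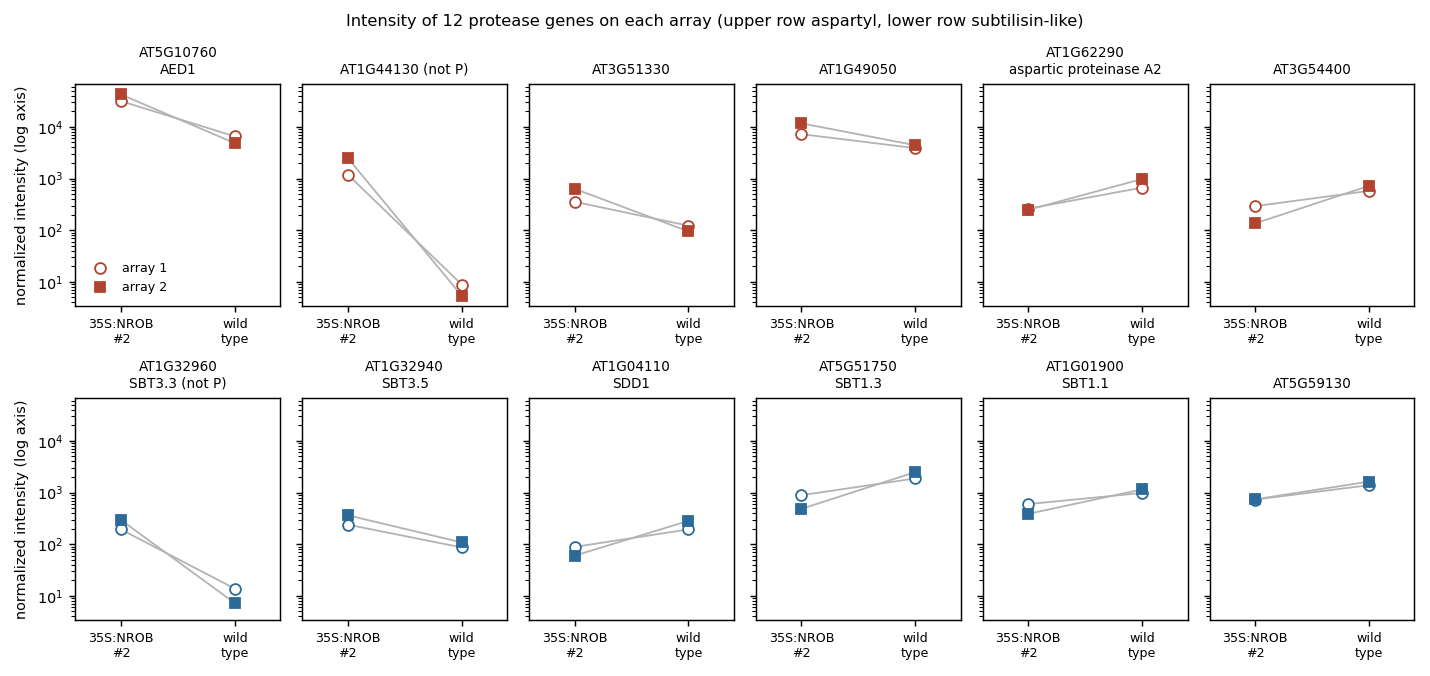
Normalized intensity (y axis, log scale) in 35S:NROB #2 (left of each panel) and wild type (right) for 6 aspartyl loci (upper panels) and 6 subtilisin-like loci (lower panels), with array 1 as open circles, array 2 as filled squares and a line joining the samples of an array. AED1, AT1G44130, AT3G51330, AT1G49050, SBT3.3 and SBT3.5 are higher in the line on both arrays and the other 6 are lower on both; the loci titled "not P" were not marked P on both arrays.

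Many protease genes could not be compared. Of the 30 aspartyl loci not marked P on both arrays, 21 had all 4 intensities at or under the dimmest P probes, and so had 27 of the 32 such subtilisin-like loci. CDR1 (AT5G33340), an apoplastic protease of disease resistance, was among them, with 7.15 and 8.00 units in 35S:NROB #2, against 7.43 and 7.98 in wild type. UND, SBT4.12, SBT4.13, SBT5.4, UNE17 and the subtilisin-like AT4G10540 were also among them. With every locus counted whatever its mark, 6.35% of all loci were higher and 4.26% lower by the fold rule, against 7 and 7 of the 67 aspartyl and 4 and 5 of the 54 subtilisin-like loci.

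Some of these loci were well above the dimmest P intensities in 1 genotype and near or under them in the other. They were picked for their ratios, so their values are a description with no test. Their folds are lower limits: the mean of the brighter group was set against, on each array, the higher of the dimmest P intensity and the dim sample's own. A limma fit of every locus whatever its mark called 5.81% of 26385 loci, among them 6 aspartyl and 4 subtilisin-like loci, but its ratios include those against background. AT1G44130, an aspartyl locus, had 1194 and 2495 units in 35S:NROB #2, against 8.89 and 5.41 in wild type. It was at least 64.6-fold higher in the line, and its wild-type samples lay at background. SBT3.3 (AT1G32960), a subtilase of immune priming, had 193 and 293 units in 35S:NROB #2, against 13.8 and 7.21 in wild type. It was at least 8.90-fold higher in the line. AT1G65240, an aspartyl locus, had 39.2 and 73.8 units in 35S:NROB #2, against 8.22 and 7.11 in wild type, at least 2.02-fold higher. Its further probe had 24.0 and 27.3 units in 35S:NROB #2, against 8.32 and 8.34 in wild type. These were all under the dimmest P intensities, so that probe gives no fold.

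On the other side were 3 aspartyl loci and 1 subtilisin-like locus that were brighter in wild type. AT1G25510 had 30.8 and 15.5 units in 35S:NROB #2, against 102 and 129 in wild type, at least 2.71-fold lower. AT2G03200 had 24.1 and 20.2 units in 35S:NROB #2, against 72.6 and 78.1 in wild type, at least 1.78-fold lower. In both, the samples of the line were under the dimmest P intensities. AT5G10080 was at least 1.77-fold lower and the subtilisin-like AT5G67090 at least 2.16-fold lower. ALE1 (AT1G62340), a subtilase of embryo cuticle formation, had 38.2 and 17.4 units in 35S:NROB #2, against 11.7 and 7.96 in wild type, too dim for a fold, and its other probe lay at background in all 4 samples. AT5G36260, AT3G51340, AT3G42550, AT5G19110, AT5G11940 and AT5G59100 were also too dim for a fold.

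Protease genes often lie side by side, and 8 runs of at least 3 neighbouring members were found, 3 aspartyl and 5 subtilisin-like. The runs did not behave alike. In the aspartyl run AT3G51330 to AT3G51360, the 2 loci marked P on both arrays, AT3G51330 and AT3G51350, were higher on both arrays in the line. AT3G51350 had 46.1 and 63.9 units in 35S:NROB #2, against 36.2 and 41.1 in wild type, close to the dimmest P intensities. A further AT3G51350 probe, marked A on both arrays, lay at background, with 6.54 and 8.18 units in 35S:NROB #2, against 6.71 and 7.44 in wild type. AT3G51340 had 30.2 and 41.5 units in 35S:NROB #2, against 15.5 and 27.9 in wild type. AT3G51360 had 17.6 and 22.6 units in 35S:NROB #2, against 8.00 and 8.52 in wild type. These last values of AT3G51340 and AT3G51360 were at or near background, so no fold or direction is given for them.

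In the subtilisin-like run AT1G32940 to AT1G32980, SBT3.5 and SBT3.3 were the 2 of 5 loci bright enough for a direction, and both were higher on both arrays in the line. AT1G32950, between them, had 32.9 and 30.0 units in 35S:NROB #2, against 20.0 and 10.8 in wild type, at or near background. AT1G32970 and AT1G32980 stayed at background in all 4 samples. In the largest run, AT5G59090 to AT5G59190, AT5G59130 was the one of 6 loci marked P on both arrays, and its neighbours included SBT4.12 and SBT4.13 at background. In the run AT4G10510 to AT4G10550, the one locus marked P on both arrays was AT4G10550 (mean log2 ratio -0.19). In the run AT4G21630 to AT4G21650 it was AT4G21650 (-0.76), and in the run AT5G19100 to AT5G19120 it was AT5G19120. The runs AT2G28010 to AT2G28040 and AT5G58820 to AT5G58840 held no such locus. Neighbours in a run can be close in sequence, and whether a probe also bound a neighbour's transcript was not tested.

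**Figure D5:**
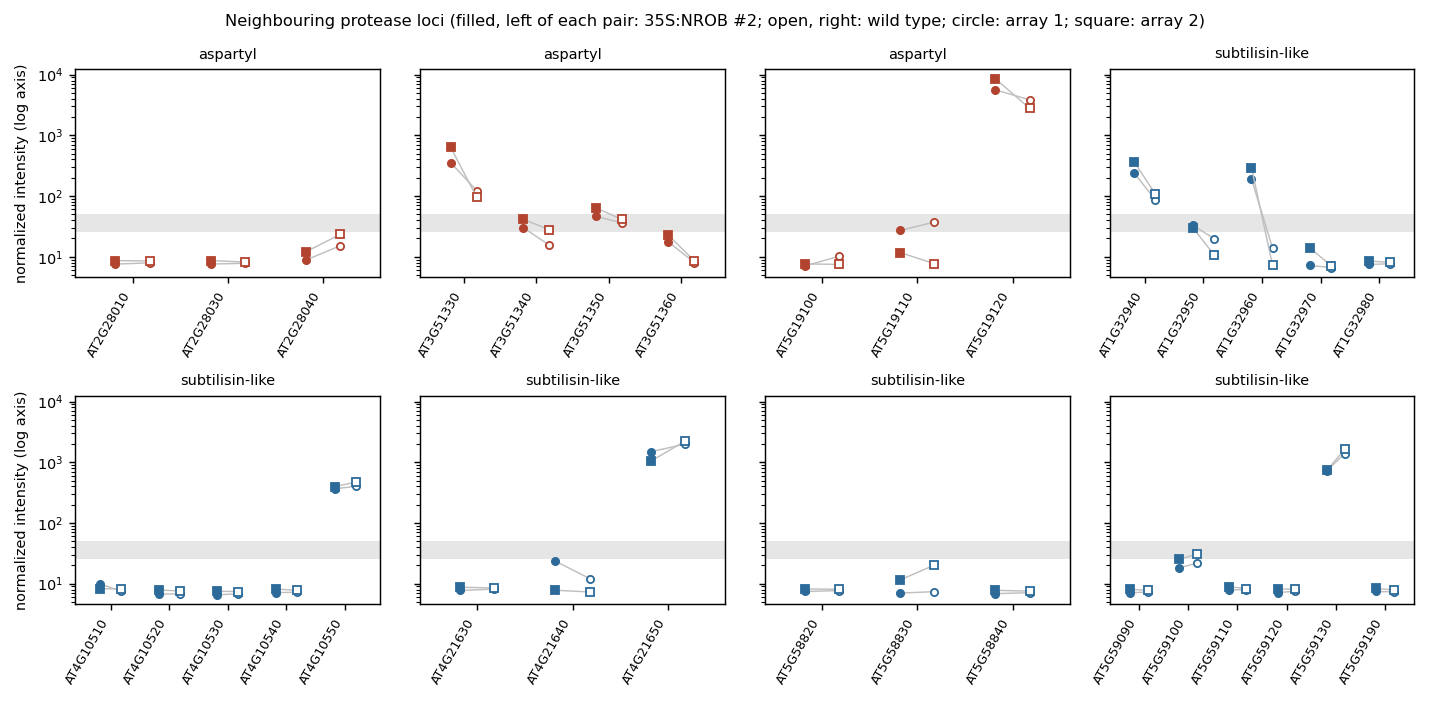
Normalized intensity (y axis, log scale) of the loci in each of the 8 runs of neighbouring protease genes, with 35S:NROB #2 filled and on the left of each pair, wild type open and on the right, array 1 as circles and array 2 as squares. The grey band spans the dimmest intensities of P probes (25.4 to 51.0 units). AT3G51330, AT3G51350, SBT3.5 (AT1G32940) and SBT3.3 (AT1G32960) are higher in the line on both arrays. AT3G51350 lies mostly in the band, and the other loci of these runs lie in or under it.

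Further probes of a locus mostly gave like ratios where they were marked P on both arrays. Of 27 protease loci with a further probe, 15 had a further probe marked P on both arrays, 19 probes in all. Of these, 15 had the same sign of the mean log2 ratio as the brightest probe, and 18 lay within 0.25 of it. The widest gap among these 19 was 0.52, for a further probe of AT3G52500. The rest of the 35 further probes were not marked P on both arrays, and some lay further from the brightest probe. Their widest gap was 1.43, for aspartic proteinase A2, and a dim PCS1 probe had a mean log2 ratio of 0.49 against -0.50.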

How the data were processed

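Total RNA of young leaves was labelled and hybridised to 2-colour Agilent arrays, per the labels' protocols. The submitters' processing notes list Agilent Feature Extraction 8.5.1.1. Per the file headers, the authors deposited a normalized intensity for each channel, a 1-letter mark and a log2 ratio with wild type on top. That ratio equals the log2 of the channels within 9.62e-07, and its sign was turned here. The background correction and normalization steps are not given in the sources used here, and either could change the ratios of dim probes. The values of the series matrix were log2 values deposited by the authors and equalled the ratios within 5e-06, with the sign turned.

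Loci were named for 36710 of 43603 gene probes (34348 through an accession, 1414 through a locus tag, 736 through a symbol and 212 through a tag missing from the reference) with the table of assembly TAIR10.1; the rest were not analysed here. The fit was limma 3.58.1 in R 4.3.3, an intercept on the 2 ratios with eBayes (1 residual and 2.72 prior degrees of freedom). It was also run on simulated data with spreads drawn from its own fitted prior. That run checked only that added differences were recovered, and it cannot show the error rate on the real arrays. Each array pairs the genotypes by construction, and the channels are compared within arrays for that reason. Over tested loci, deviations from the genotype means correlated at r = -0.07 within an array, so this value gives no support for the pairing. P-values of the reported fit rest on the spread between these 2 arrays, which eBayes draws for each locus towards that of all loci tested. Tables were read with Python 3.11.15 and pandas 2.3.3, and plots drawn with matplotlib 3.10.9.

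Members and lists were chosen with earlier results of these data known. Genes were named when on a list of known roles, among the 10 highest or lowest tested members of a class, over 2 in mean log2 ratio when not marked P on both arrays, or within a run of neighbours (at least 3 members, steps of at most 100 in locus number). AT5G10080, AT2G03200, AT5G67090 and the dim loci named as too dim for a fold were chosen after their values were seen. Alternatives covered normalization, an added offset, the mark filter, dim loci, the probe of a locus, the pairing and each replicate. No probe sequence was used here.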

Additional observations from a re-analysis of the deposited data

How the results depend on the processing

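The number of limma calls depended on the processing. The class difference kept its sign in every setting tried but was near 0 where dim probes, most of them at background, were counted. Calls over all loci, then among aspartyl and subtilisin-like loci, were 43, 0 and 0 as reported. They were 618, 2 and 2 with each array centred on its median, 1425, 7 and 4 with loess, 852, 2 and 2 with quantile normalization, and 741, 2 and 2 with 50 added to every intensity. They were 1534, 6 and 4 over every locus whatever its mark, 326, 2 and 1 without the lower quartile of intensity, and 912, 4 and 2 with the mean of a locus's probes. With a P mark on at least 1 array they were 25, 0 and 0, and series matrix values or the brightest probe marked P (an alternative chosen after seeing the data) gave 43, 0 and 0. With no replicate block, so that the pairing by array was dropped, they were 2946, 11 and 10. In this last fit the adjusted p of named genes followed the size of the mean log2 ratio whatever a locus's own spread. The share of higher calls over all loci was 93.0% as reported, 75.7% centred, 64.4% with loess or quantile normalization, 70.9% with the offset and 50.1% with no replicate block. AED1, aspartic proteinase A2 (AT1G62290) and AT5G59130 passed in 8 of 12 fits, and SBT3.5 in 7 of 11. The fits share the same 2 arrays and are not independent. In the reported fit, which is counted here, none of these loci passed. Their adjusted p had its lowest value with no replicate block and ranged from 8.93e-26 to 0.0731 (AED1), 2.85e-09 to 0.0731 (SBT3.5), 5.27e-10 to 0.0759 (A2) and 0.000421 to 0.0759 (AT5G59130). Over every locus whatever its mark, 7 aspartyl loci were higher and 7 lower by the fold rule, 4 subtilisin-like loci were higher, the subtilisin-like median was -0.017 (also with no refit, chosen after seeing the data) and the class difference was 0.025. Without the lower quartile of intensity, SBT3.5 was not tested and 0 subtilisin-like loci were higher by the fold rule. With 1 array at a time, aspartyl loci past the fold rule ranged from 2 to 5 higher and 1 to 5 lower, and subtilisin-like loci from 2 to 8 lower; the aspartyl median ranged from -0.18 to 0.065, the subtilisin-like median from -0.70 to -0.34 and their difference from 0.40 to 0.52. The mean log2 ratio turned in sign for AT1G03220 (0.025 centred, 0.095 loess, 0.092 mean of probes), AT4G20430 (0.019 centred, 0.036 loess) and AT3G14067 (0.044 mean of probes, where 2 dim probes enter). With 1 array at a time it ranged from -0.14 to 0.13 for AT1G03220, -0.17 to 0.15 for AT4G20430, -0.27 to 0.58 for AT1G09750, -0.0043 to 0.22 for AT3G14240 and -0.77 to 0.065 for NANA (AT3G12700). The cause of these changes was not tested. Signal over background limits 62 of the 121 loci.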

Other observations

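Other protease families, chosen after seeing the data, are given here as values. Of the papain-type and other cysteine proteases, 22 were tested, with a median log2 ratio of -0.04. Of the serine carboxypeptidases, 28 were tested, with a median of -0.21. Of these, 22 were lower on both arrays in 35S:NROB #2 and 5 were higher. Over all loci tested, 43.3% were lower on both arrays and 37.8% were higher. The 5 metacaspases tested had a median of 0.01. No locus of these 3 families passed limma (adjusted p), and 6, 8 and 3 of them had an unadjusted limma p under 0.05. Over all loci tested, 33.1% passed that unadjusted threshold.

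Peptide precursors on the list of substrates that lay near background had these values. IDA, the abscission peptide precursor, had 29.6 and 42.9 units in 35S:NROB #2, against 7.98 and 7.61 in wild type. EPF2, the stomatal peptide precursor, had 19.1 and 9.94 units in 35S:NROB #2, against 25.3 and 36.5 in wild type. The floral marker AP3 stayed between 7.54 and 8.45 units in all 4 samples.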
